A study of Homo sapiens with 5 samples.

Results

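The libraries compared here came from SNU-387 cells, an established human hepatocellular carcinoma line, carrying either a vector for SALL4B, the shorter isoform of the transcription factor SALL4, or an empty vector. They are 2 of the 5 libraries of an RNA-seq study of SALL4 in liver cancer cells. The others are SNU-387 cells with the longer isoform SALL4A, used here only for values set beside those of SALL4B, and SNU-398 cells that were untreated or carried a SALL4 knockdown, which are not used. For every sample the labels list RPMI medium with serum, a lentivirus and selection with puromycin, so the empty vector cells share the virus and the drug with the SALL4B cells. Each group held 1 library from 1 cell line, so no difference below has a replicate error and no p-value was computed. The values are FPKM, fragment counts scaled to transcript length and to library size, so levels of different genes can be compared. Of 24544 gene symbols, 12459 reached 1 FPKM in at least 1 of the 2 libraries and were kept. Every ratio is log2 of (SALL4B FPKM + 1) over (empty vector FPKM + 1), a scale that understates differences of genes with low values, and a gene is called higher or lower where that ratio reached 2-fold.

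SALL4 is a zinc finger factor of embryonic and fetal cells that is silent in most adult tissue and is re-expressed in some liver cancers. It binds short AT-rich DNA through its C-terminal zinc fingers and recruits the histone deacetylase complex NuRD, through which it represses genes. SALL4B arises by alternative splicing, lacks some of the internal zinc fingers of SALL4A and keeps the C-terminal ones. SALL4 (on chromosome 20, 51782331 to 51802521, GRCh38.p14) was at 0.117 FPKM in empty vector cells and 10.4 FPKM in SALL4B cells, and at 23.1 FPKM in the SALL4A library. The listed SALL4 level therefore followed the labels, and the SALL4B library carried less of it than the SALL4A library. One value per gene does not separate the isoforms.

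Both libraries held little of the transcripts that define hepatocytes. Of 12 hepatocyte markers, 9 were under 1 FPKM in both libraries. ALB, which encodes albumin, was at 0.0370 FPKM in empty vector cells and was listed at 0 with SALL4B, and the hepatocyte factor HNF4A was at 0.0773 and 0.287 FPKM. The summed hepatocyte markers were 8.02 FPKM in empty vector cells and 41.9 FPKM in SALL4B cells, and nearly all of the second sum was SERPINA1 and APOA1, described below. Endothelial markers summed to 4.46 and 2.32 FPKM, with 12 of 13 under 1 FPKM in both. Leukocyte markers summed to 49.0 and 60.9 FPKM, mostly through the lysosomal gene CD68 (33.97 and 41.7 FPKM), while the T cell receptor component CD3E was at 0.0568 FPKM and listed at 0. Its partner CD3D was at 0.165 FPKM in empty vector cells and 4.13 FPKM in SALL4B cells, and the lymphocyte antigen CD52 at 3.82 and 9.47 FPKM, the 2 leukocyte markers past 2-fold. CD3D passed the filter only through the SALL4B library, so it could not have been called lower. Stellate cell and fibroblast markers summed to 959 FPKM in empty vector cells and 657 FPKM in SALL4B cells. Of the 13, 11 reached 1 FPKM in at least 1 of the 2 libraries, with 5 lower and 1, DES, higher. COL1A1, COL1A2, COL3A1 and FAP were among the lower ones, while LUM was at 263 and 488 FPKM and ACTA2 at 56.9 and 65.4 FPKM. Biliary and progenitor markers summed to 282 and 470 FPKM, with 3 of the 6 kept higher and 1 lower. CD24 made up most of both sums (214 and 437 FPKM), and KRT7 was at 47.6 and 0.811 FPKM. In these bulk libraries, fewer cells of a type and less RNA per cell cannot be told apart, and the part of such cells in any difference below was not tested. Depth, estimated from the step size of low FPKM values, was 12.8 M (mega) fragments for empty vector and 9.51 M for SALL4B. A transcript of 2 kb at 1 FPKM then had about 25.7 and 19 fragments, so values near 1 FPKM rest on few fragments.

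Among genes past 2-fold, more lay below the empty vector level than above it. With SALL4B, 390 of 12459 genes (3.13%) lay 2-fold or more above empty vector and 605 (4.86%) 2-fold or more below it, together 7.99%. The gap between directions widened with the size of the difference. At least 4-fold, 53 genes were higher and 184 lower, and at least 8-fold, 20 were higher and 84 lower. The median gene had a log2 ratio of 0.03 and the standard deviation across genes was 0.70. Of the higher genes, 111 were under 1 FPKM in empty vector cells, and of the lower genes, 255 were under 1 FPKM in SALL4B cells. Each of these passed the filter through only 1 library, so it could not have been called the other way. The counts depend on how the libraries are put on 1 scale. A common upper quartile of the values above 0, chosen after seeing the data, moved the median gene by -0.32 and gave 199 higher and 1011 lower genes, so that higher genes were 16.4% of the called genes rather than 39.2%. Under the alternatives that kept each gene, 605 genes were lower in every one and 201 higher in every one. All 4 scalings moved the median gene down, and smaller pseudocounts enlarge every ratio. These alternatives could therefore hardly reduce the lower count, and its stability says little about the lower genes. With that common upper quartile, the lowest ratio of a higher gene that stayed past 2-fold was 1.148, and the highest ratio that did not stay was 1.34. Directions of small list medians below are read against that shift.

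**Figure D1:**
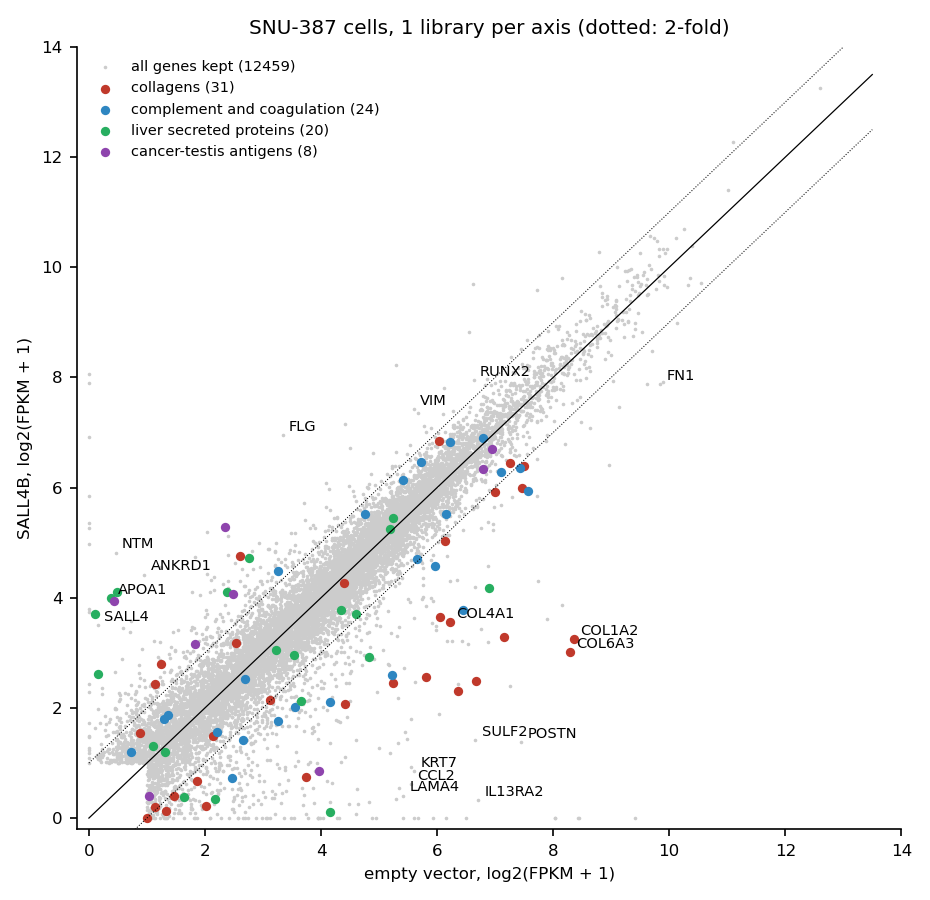
Level of each of the 12459 genes with empty vector (horizontal axis) and with SALL4B (vertical axis), both as log2(FPKM + 1), 1 library per axis, with 4 gene lists in colour and dotted lines at 2-fold. Most collagens lie under the lower dotted line, with COL6A3 and COL1A2 among the most abundant of the genes far from the diagonal, while APOA1, NTM, FLG and SALL4 lie far above it.

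Leaving out small RNAs, the gene furthest below its empty vector level was IL13RA2, a decoy receptor for interleukin 13, at 104 FPKM in empty vector cells, 0.257 FPKM in SALL4B cells and 10.5 FPKM in SALL4A cells. POSTN, which encodes the matrix protein periostin, was at 173 FPKM against 1.61 FPKM in SALL4B cells and 6.38 FPKM in SALL4A cells. Of the 15 genes furthest below, all but KRT7, MEDAG and RAC2 encode secreted proteins, adhesion molecules or receptors. SULF2 trims sulfate from heparan sulfate chains and was at 99.998 against 1.68 FPKM (log2 ratio -5.24). TNFAIP6, a hyaluronan-binding protein induced in inflammation, was at 45.6 and 0.906 FPKM (-4.61), and the adipogenesis gene MEDAG at 23.2 and 0.0468 FPKM (-4.53). RAC2, a small GTPase of blood cells, was at 27.3 FPKM in empty vector cells, 0.231 FPKM in SALL4B cells and 12.2 FPKM in SALL4A cells. In all 15 the SALL4A library lay between the other two, against the same empty vector library.

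At the other end, NTM, the neural adhesion molecule neurotrimin, was at 0.376 FPKM in empty vector cells, 27.3 FPKM in SALL4B cells and 2.87 FPKM in SALL4A cells. FLG, the epidermal protein filaggrin, was already at 9.14 FPKM in empty vector cells and reached 123 FPKM in SALL4B cells. ITLN1, a lectin that binds microbial sugars, was at 0.0747 and 12.1 FPKM and was listed at 0 with SALL4A. These 3 genes thus differed in where SALL4A stood: well above empty vector for FLG (62.4 FPKM), above empty vector but far under SALL4B for NTM, and at 0 for ITLN1. CST7, the protease inhibitor cystatin F, was at 1.38 FPKM in empty vector cells, 22.6 FPKM in SALL4B cells and 1.001 FPKM in SALL4A cells. The channel subunit gene SCNN1D had the highest level in this set, with 96.8 FPKM against 834 FPKM, and reads of overlapping genes cannot be told apart there. EEF1A2, the elongation factor of muscle and neurons, was at 3.09 and 35.4 FPKM (3.15), and the calmodulin-like gene CALML6 at 0.653 and 10.9 FPKM (2.84).

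The promoters of 2 genes lower with SALL4B (POSTN and COL6A3) and 2 higher (NTM and FLG) are shown because SALL4 is known to bind AT-rich DNA. Each is the 250 bases before the RefSeq start on GRCh38.p14, written 5′ to 3′ on the gene's strand. Capitals mark ATATT or its reverse complement AATAT, and TATAAA or its reverse complement TTTATA. Only ATATT was taken as the AT-rich motif of SALL4, and TATAAA was counted beside it without that reading. These motifs were searched on both strands and can overlap. POSTN is at chr13:37598769-37599018 (minus strand), COL6A3 at chr2:237414165-237414414 (minus), NTM at chr11:131370365-131370614 (plus) and FLG at chr1:152325240-152325489 (minus).
POSTN: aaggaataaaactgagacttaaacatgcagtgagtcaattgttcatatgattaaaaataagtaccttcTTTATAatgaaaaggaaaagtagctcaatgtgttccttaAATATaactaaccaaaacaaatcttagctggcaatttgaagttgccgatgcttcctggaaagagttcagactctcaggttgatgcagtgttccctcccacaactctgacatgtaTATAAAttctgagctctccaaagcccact
COL6A3: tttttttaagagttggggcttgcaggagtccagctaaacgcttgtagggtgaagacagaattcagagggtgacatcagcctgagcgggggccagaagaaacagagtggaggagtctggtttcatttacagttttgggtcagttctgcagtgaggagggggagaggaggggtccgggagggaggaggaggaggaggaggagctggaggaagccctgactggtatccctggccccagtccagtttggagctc
NTM: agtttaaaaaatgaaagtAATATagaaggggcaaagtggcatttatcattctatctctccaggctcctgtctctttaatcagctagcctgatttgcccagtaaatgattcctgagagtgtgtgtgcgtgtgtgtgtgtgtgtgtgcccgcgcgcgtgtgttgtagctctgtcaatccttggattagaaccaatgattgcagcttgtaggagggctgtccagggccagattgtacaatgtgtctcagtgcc
FLG: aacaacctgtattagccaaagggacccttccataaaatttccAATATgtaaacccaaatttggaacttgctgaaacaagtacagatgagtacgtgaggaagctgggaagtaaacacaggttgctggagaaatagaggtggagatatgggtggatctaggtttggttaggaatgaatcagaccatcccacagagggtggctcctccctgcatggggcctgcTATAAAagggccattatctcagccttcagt
POSTN held 1 ATATT match and 2 TATAAA matches, FLG 1 of each, NTM 1 ATATT match, and COL6A3 neither motif. Both POSTN and FLG have a TATAAA close to the start. Across genes, ATATT was found in 34 of the 263 higher genes with a promoter entry (12.9%) and in 59 of 391 lower genes (15.1%). Among all genes kept, which include the called genes, 1058 of 9676 held it (10.9%). The called genes come from 1 library a side, so these shares have no replicate error and their differences were not tested. TATAAA was found in 8.75% of the higher, 9.72% of the lower and 5.6% of all genes kept. Among all 27305 RefSeq promoters of this length, 22% held ATATT and 11.1% TATAAA. The median GC content of these windows was 63.2% for higher, 62.4% for lower and 64.8% for all genes kept. A match is a description of the letters and not a binding site.

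To look beyond the extremes, 44 lists of pathways and families were read, holding 2412 symbols found in the table, of which 1573 passed the 1 FPKM filter. Of these members 105 were higher and 196 lower. Each list's count is set beside the background of 3.13% higher and 4.86% lower over all genes, and its median beside 0.03. The lists were chosen with earlier results of these data known, so a count above that background is a description and not a test.

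**Figure D2:**
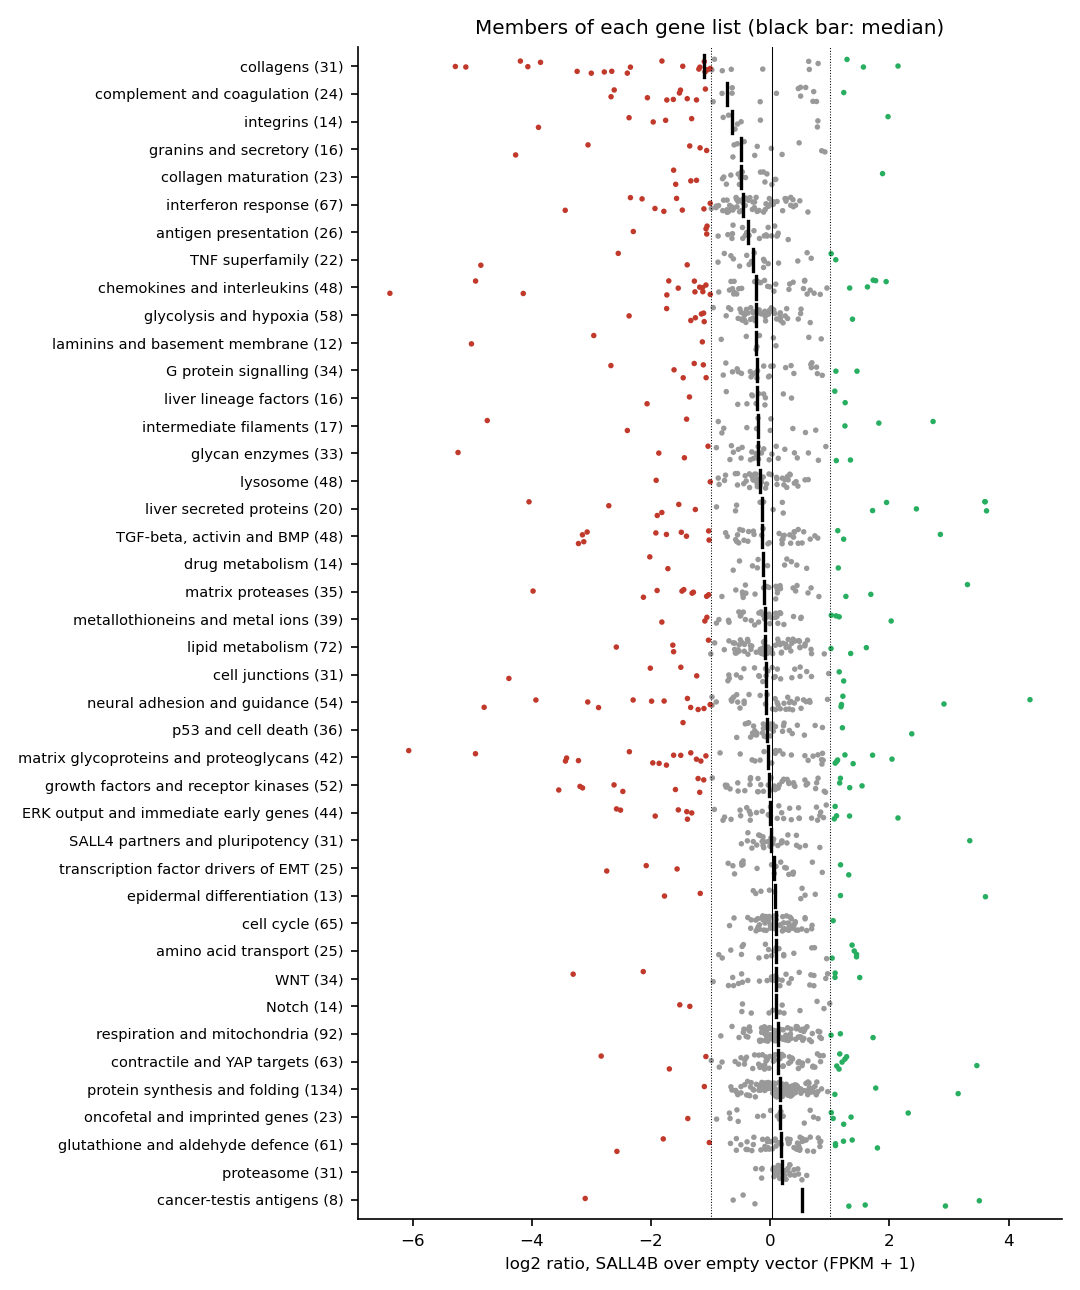
Log2 ratio of SALL4B over empty vector (FPKM + 1) for each member at 1 FPKM or more, by gene list, with the number of members in parentheses. Red points are at least 2-fold lower, green at least 2-fold higher and the black bar is the median. The 4 HOX genes and the marker lists are not plotted. Among the lists plotted, collagens have the lowest median (-1.11) and cancer-testis antigens the highest (0.53, but 0 without the filter). Cell cycle and proteasome genes crowd near 0.

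Collagens are the triple-helical proteins of connective tissue. Of 31 collagen chains at 1 FPKM or more, 20 were lower and 3 higher, with a median of -1.11. The 9 fibrillar chains had 5 lower and 0 higher (median -1.01). COL1A2 of type I collagen was at 326 FPKM in empty vector cells, 8.50 FPKM in SALL4B cells and 83.2 FPKM in SALL4A cells, and its partner chain COL1A1 was at 54.9, 4.92 and 18.6 FPKM. COL3A1 was at 141 and 8.80 FPKM. The type V chains that start fibrils differed less, with COL5A2 at -1.47 and COL5A1 at -0.80 on the log2 scale. COL11A1 lay on the other side, at 64.6 FPKM in empty vector cells and 114 FPKM in SALL4B cells (0.81), short of 2-fold.

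Basement membrane collagens had a median of -2.40, with 6 of 9 lower and 2 higher. The paired type IV chains COL4A1 and COL4A2, which lie head to head on chromosome 13, stood at 73.5 and 65.4 FPKM in empty vector cells and at 10.8 and 11.6 FPKM in SALL4B cells. In the SALL4A library the same chains were at 108 and 80.8 FPKM, above empty vector. The X-linked pair COL4A5 and COL4A6 was also lower, at -2.34 and -3.001, as were COL15A1 (81.4 to 3.92 FPKM) and COL18A1 (36.8 to 4.50 FPKM), whose ends release anti-angiogenic fragments. COL4A4 stood opposite, at 1.36 FPKM in empty vector cells and 5.99 FPKM in SALL4B cells.

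In collagen VI, which forms beaded filaments around cells, the 3 chains differed by unequal amounts. COL6A3 was at 313 FPKM in empty vector cells, 7.07 FPKM in SALL4B cells and 115 FPKM in SALL4A cells, while COL6A1 was at 127, 59.7 and 55.4 FPKM and COL6A2 at 179, 83.4 and 79.01 FPKM. COL6A1 and COL6A2 thus stood alike in both SALL4 libraries and COL6A3 did not. The network chains of type VIII went opposite ways: COL8A1 was at 101 against 4.61 FPKM and COL8A2 at 5.09 against 25.97 FPKM. Enzymes that modify collagen differed less than the chains. Of 15 hydroxylases and chaperones, 2 were lower and 0 higher (median -0.49), among them FKBP10, a collagen chaperone (45.4 to 14.1 FPKM). The collagen chaperone SERPINH1 was at -0.47 and the hydroxylase subunit P4HB at 0.09. The crosslinking oxidases LOX (-1.33) and LOXL1 (-1.24) were lower, and LOXL2 (-0.09), LOXL3 (0.07) and LOXL4 (0.03) were within 0.1 of no difference. ADAMTS3, which trims procollagen, was higher, at 1.88 and 9.66 FPKM.

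**Figure D3:**
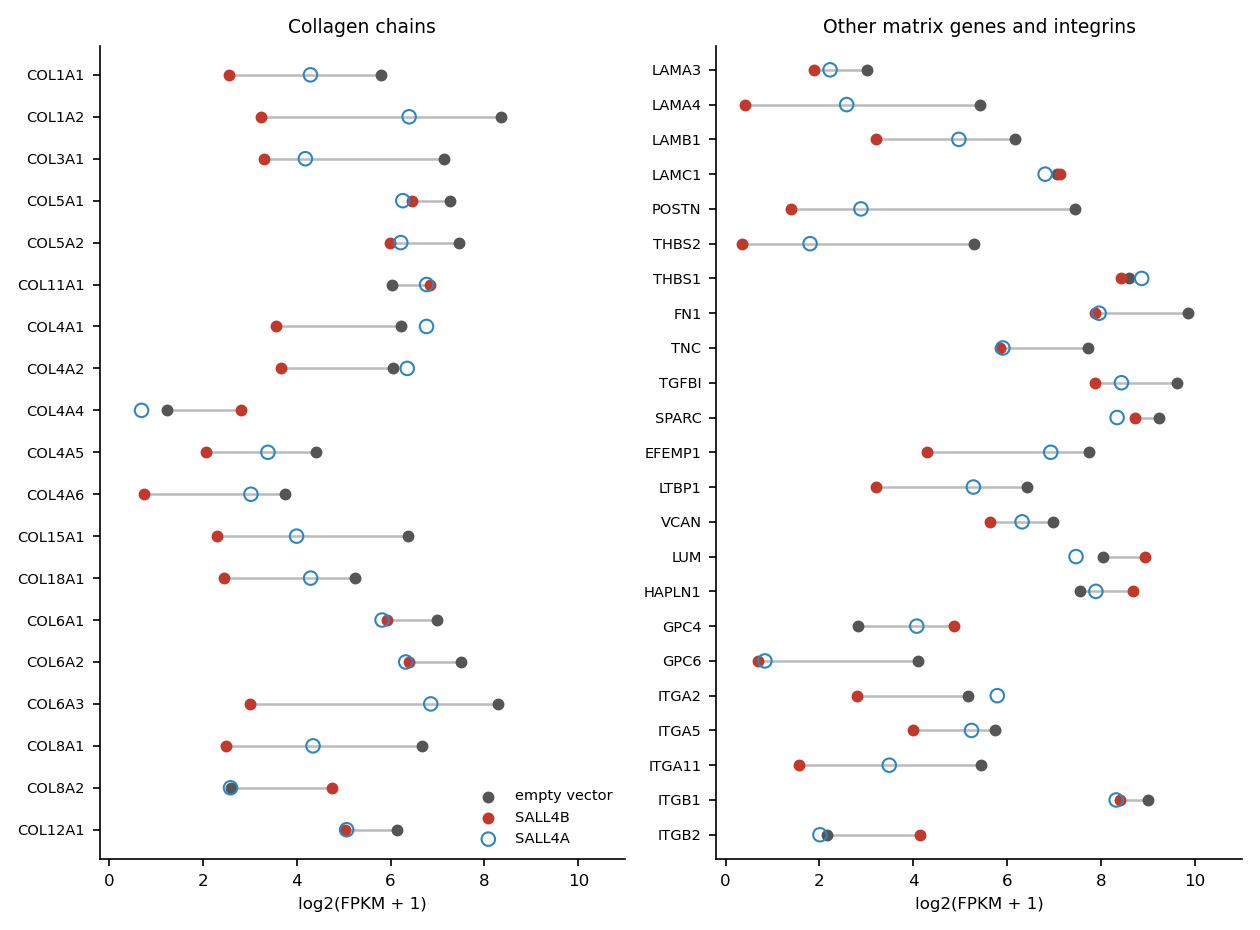
Level of matrix genes and integrins as log2(FPKM + 1) with empty vector (grey), SALL4B (red) and SALL4A (open blue), 1 library each. For COL4A1, COL4A2 and ITGA2 the SALL4A value lies above empty vector and the SALL4B value below it, while COL8A2, HAPLN1, GPC4 and ITGB2 are at least 2-fold higher with SALL4B than with empty vector.

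Laminins, the trimers that organise basement membranes, were split by chain. LAMA4 was at 41.9 FPKM in empty vector cells and 0.328 FPKM in SALL4B cells, and LAMB1 at 70.8 and 8.23 FPKM. Their common partner LAMC1 was at 133 and 138 FPKM, a log2 ratio of 0.05. LAMA3 (-1.14) and LAMB3 (-0.82) of epithelial laminin were below empty vector, LAMB3 within 2-fold. Of 8 laminin chains 3 were lower, and of the 4 linker genes, NID1, AGRN, NTN4 and HSPG2, none passed 2-fold in either direction.

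Among matrix glycoproteins, 13 of 27 were lower and 4 higher (median -0.50). FN1, fibronectin, was the most abundant of them in the empty vector library, at 918 FPKM in empty vector cells and 234 FPKM in SALL4B cells (-1.97). TGFBI (785 to 234 FPKM), TNC, tenascin C (209 to 56.8 FPKM), EFEMP1, a fibulin (212 to 18.7 FPKM), and THBS2 (38.2 to 0.275 FPKM) were lower too. The thrombospondin THBS1 (385 and 343 FPKM, -0.17) stayed close to its empty vector level, unlike its paralog THBS2. SPARC was at -0.50. Higher were VTN, vitronectin (4.21 to 16.1 FPKM), FBLN1, fibulin 1 (1.64 to 5.30 FPKM), and CYR61 (43.9 to 96.5 FPKM), whose relative CTGF was lower (26.7 to 12.1 FPKM).

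Proteoglycans did not go the way of the collagens: their median was 0.80, with 3 of 15 higher and 2 lower, and with the common upper quartile of values above 0 it was 0.46, with 2 higher and 3 lower. The keratan sulfate proteoglycan LUM, lumican, was at 263 FPKM in empty vector cells, 488 FPKM in SALL4B cells and 176 FPKM in SALL4A cells. Its neighbours on chromosome 12, EPYC (76.1 to 139.8 FPKM) and KERA (2.84 to 9.08 FPKM), were also above empty vector, while DCN of the same cluster was at 30.4 and 32.5 FPKM and at 2.73 FPKM in SALL4A cells. HAPLN1, which links hyaluronan to aggrecan, was at 186 and 409.8 FPKM. The glypicans GPC4 (6.03 to 27.995 FPKM) and GPC6 (16.1 to 0.604 FPKM) lay on opposite sides. VCAN, versican, was lower, at 125 and 48.9 FPKM.

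Of 23 matrix proteases, 7 were lower and 2 higher. FAP, a serine protease of activated fibroblasts, was at 39.3 FPKM in empty vector cells and 1.56 FPKM in SALL4B cells. The gelatinase MMP2 was at 155 and 56.1 FPKM and its activator MMP14 at 79.4 and 76.5 FPKM. Both plasminogen activators were lower, PLAU at -1.06 and PLAT at -1.29. MMP24 was higher (2.42 to 10.03 FPKM). Among integrins, the receptors that hold cells to this matrix, 5 of 14 were lower and 1 higher (median -0.64). The collagen receptor ITGA11 was at 42.5 FPKM in empty vector cells and 1.94 FPKM in SALL4B cells, and ITGA2, another collagen receptor, at 34.7 and 5.93 FPKM but 54.2 FPKM in SALL4A cells. The fibronectin receptor chain ITGA5 was at 52.4 and 14.8 FPKM. Their common beta chain ITGB1 was the most abundant and differed less, at 511 and 339 FPKM. ITGB2, the beta chain of leukocyte integrins, was higher, at 3.47 and 16.6 FPKM.

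Cytoskeletal and junction genes showed no common direction. VIM, the mesenchymal filament vimentin, was at 47.4 FPKM in empty vector cells, 170.3 FPKM in SALL4B cells and 33.1 FPKM in SALL4A cells. The progenitor filament NES, nestin, was at 34.99 and 5.84 FPKM, and the muscle filament DES at 2.33 and 6.95 FPKM. KRT7, a keratin of bile duct epithelium, was at 47.6 and 0.811 FPKM, whereas KRT8 and KRT18, the pair found in hepatocytes, were at -0.81 and -0.78, short of 2-fold. The hair keratins KRT81 (-1.40) and KRT86 (2.73) differed in opposite directions, and they are close paralogs that can share reads. Of 12 desmosome and epithelial adhesion genes 3 were lower, PPL (-2.01), PKP1 (-1.50) and DSP (-1.23), and 1, EPCAM, was higher (2.47 to 7.16 FPKM). Among classical cadherins, CDH13 was at 23.9 and 0.196 FPKM, while the mesenchymal CDH2 was at 116 and 101 FPKM (-0.19). In the EMT factors, regulators of the epithelial to mesenchymal switch, SNAI2 (-0.45) and ZEB1 (0.27) were within 2-fold, FOXF1 (-2.74) and TCF4 (-2.08) were lower, and RUNX2, a bone factor, was higher (98.2 to 247 FPKM, 50.5 FPKM in SALL4A cells).

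Neural adhesion molecules held some of the furthest values on both sides. L1CAM was at 39.4 FPKM in empty vector cells and 0.454 FPKM in SALL4B cells, and CADM1 at 81.6 and 4.42 FPKM. NCAM1 was on the other side with NTM, at 2.55 and 25.8 FPKM, and at 30.9 FPKM in SALL4A cells. In this class of 11 immunoglobulin adhesion molecules, 4 were lower and 2 higher. Guidance genes leaned lower, with 6 of 35 lower and 1 higher. The ephrin receptor EPHA3 was at 7.34 FPKM in empty vector cells and listed at 0 with SALL4B, the ephrin EFNB1 was at -1.99, and the semaphorins SEMA3A and SEMA3C were at -1.78 and -1.21. The semaphorin receptor NRP2 was higher (18.3 to 43.3 FPKM) and NRP1 was at -0.35. TENM3, a synaptic adhesion protein, was higher, at 26.8 and 63.9 FPKM, and SLITRK6 was at 6.35 FPKM and listed at 0 with SALL4B.

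TGF-beta and activin signalling was examined from ligands to targets. The activin subunits INHBA and INHBB exchanged places: INHBA was at 11.8 FPKM in empty vector cells and 0.466 FPKM in SALL4B cells, and INHBB at 0.510 and 9.93 FPKM. Each passed the filter through only 1 of the 2 libraries. The activin antagonist FST was at 7.40 FPKM and listed at 0 with SALL4B, while its relative FSTL3 was at 5.89 and 15.2 FPKM. TGFB1 (0.56), TGFB2 (0.75) and TGFB3 (0.41) were above empty vector but within 2-fold. The type II receptor TGFBR2 was lower, at 73.8 and 18.8 FPKM, and the type I receptor TGFBR1 was at -0.56. Of 22 inhibitors and targets 7 were lower and 1 higher (median -0.32). The feedback inhibitors PMEPA1 (39.2 to 3.54 FPKM) and SMAD7 (7.81 to 2.33 FPKM) were lower, as were LTBP1, which stores latent TGF-beta (84.996 to 8.26 FPKM), and the BMP antagonist GREM1 (108 to 37.7 FPKM). With SALL4A, PMEPA1 was at 25.7 FPKM and SMAD7 at 9.20 FPKM.

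Growth factor signalling through ERK held lower feedback inhibitors beside some higher immediate early genes. Of 17 feedback inhibitors, 5 were lower and 1 higher (median -0.66). DUSP6, the phosphatase that removes ERK phosphorylation, was at 14.5 FPKM in empty vector cells and 1.71 FPKM in SALL4B cells, and DUSP4 at 21.6 and 7.63 FPKM. SPRED1 (25.2 to 5.89 FPKM), SPRY2 (34.5 to 12.5 FPKM) and SPRY1 (5.64 to 1.67 FPKM) were lower too, and in the SALL4A library they were at 22.4, 30.8 and 4.44 FPKM. The ETS factors ETV1 (-2.58) and ETV4 (-1.54), themselves ERK targets, went with the feedback genes. Of 27 transcription factors 4 were higher and 2 lower (median 0.36). EGR1 was at 2.76 FPKM in empty vector cells, 15.6 FPKM in SALL4B cells and 1.38 FPKM in SALL4A cells, ATF3 at 4.28 and 12.3 FPKM, and MYC at 31.8 and 68.9 FPKM. KLF5 was at 1.08 and JUN at 0.12. With the common upper quartile of values above 0, 2 transcription factors were higher and 2 lower (median 0.11), and MYC and KLF5 did not stay past 2-fold. With that scaling 8 feedback inhibitors were lower and 0 higher (median -0.86). The EGF receptor ligands were split, with EREG (17.3 to 0.562 FPKM) and TGFA (20.8 to 2.55 FPKM) lower and HBEGF (5.38 to 17.6 FPKM) higher.

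Other growth factors and their binding proteins were split as well. GAS6, the ligand of AXL, was at 48.1 FPKM in empty vector cells and 4.54 FPKM in SALL4B cells, while AXL itself was at -0.42. ANGPTL2 was at 23.2 and 1.66 FPKM and the KIT ligand KITLG at 52.6 and 23.8 FPKM. The heparin-binding factor MDK, midkine, was higher, at 58.7 and 134 FPKM. IGFBP5 (100.1 to 17.2 FPKM) was lower and IGFBP3 (53.7 to 137 FPKM) higher. The most abundant receptor kinases, MET (-0.11) and FGFR1 (0.31), were within 2-fold.

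**Figure D4:**
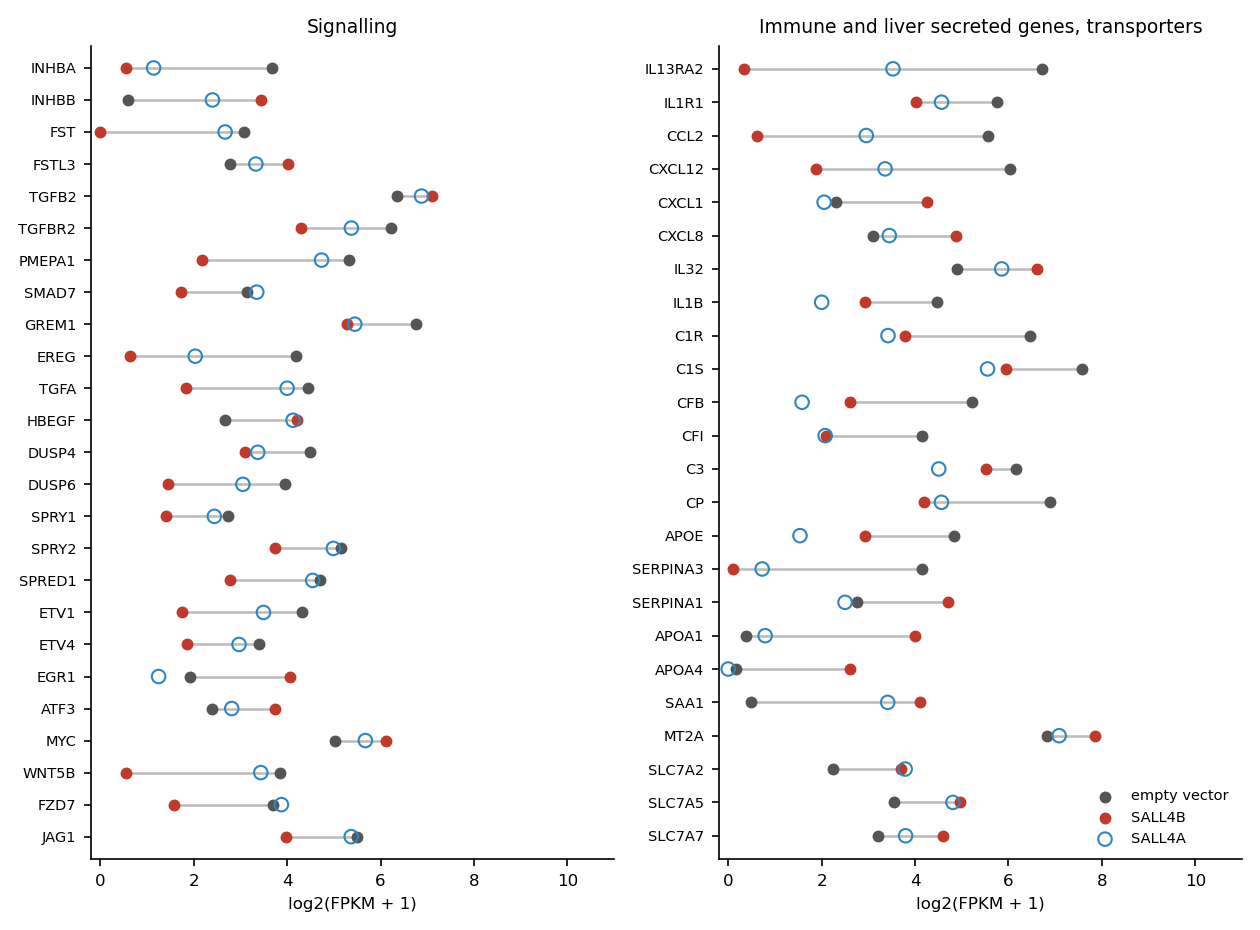
Level of signalling genes (left) and of immune, liver secreted and transporter genes (right) as log2(FPKM + 1) with empty vector (grey), SALL4B (red) and SALL4A (open blue), 1 library each. INHBA and INHBB lie on opposite sides of their empty vector values, as do CCL2 and CXCL1, and the sprouty genes SPRY1 and SPRY2 lie close to empty vector with SALL4A and lower with SALL4B.

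In WNT signalling, WNT5B was at 13.5 FPKM in empty vector cells and 0.464 FPKM in SALL4B cells, and the receptor FZD7 at 12.1 and 1.98 FPKM, whereas the receptor FZD5 was at 7.02 and 16.1 FPKM. CTNNB1, beta-catenin, was at 0.13 and CCND1 at 0.36. Among 14 Notch genes the ligand JAG1 was lower (44.3 to 14.8 FPKM), and its receptor NOTCH2 was at -0.32. Targets of the coactivator YAP were mixed, with 5 of 29 higher and 3 lower. ANKRD1 was at 0.935 FPKM in empty vector cells, 20.4 FPKM in SALL4B cells and 43.4 FPKM in SALL4A cells. ANKRD1 passed the filter only through the SALL4B library, so it could not have been called lower. The 3 angiomotins, which bind YAP, differed in direction: AMOT (1.16) and AMOTL2 (1.17) were higher and AMOTL1 was lower (8.16 to 0.285 FPKM). With the common upper quartile of values above 0 the YAP count became 2 higher and 6 lower. Among G protein regulators 6 of 34 were lower and 2 higher, with RGS4 at 7.90 and 0.398 FPKM but 15.9 FPKM in SALL4A cells, and the adenosine receptor ADORA1 at 13.5 and 38.7 FPKM.

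Chemokines lay on both sides. CXCL12, the ligand of CXCR4, was at 64.3 FPKM in empty vector cells and 2.70 FPKM in SALL4B cells, and the monocyte attractant CCL2 at 45.9 and 0.527 FPKM. The neutrophil attractants CXCL8 (7.62 to 28.4 FPKM) and CXCL1 (3.93 to 18.02 FPKM) were higher, although the related CXCL2 was at 8.20 and 3.59 FPKM. Of 14 chemokines 4 were lower and 2 higher. IL32 was higher (28.7 to 97.4 FPKM), IL1B lower (21.2 to 6.62 FPKM) and IL6 at 0.67. Of 23 cytokine receptors 7 were lower and 1 higher (median -0.56). Beside IL13RA2, the interleukin 1 receptor IL1R1 (52.8 to 15.2 FPKM), the CXCL12 scavenger ACKR3 (22.4 to 6.19 FPKM) and LIFR (10.6 to 4.29 FPKM) were lower, and the common subunit IL6ST was at 0.09. In the TNF family, the decoy receptor TNFRSF11B, osteoprotegerin, was at 152 FPKM in empty vector cells, 4.30 FPKM in SALL4B cells and 32.1 FPKM in SALL4A cells. The ligands CD70 (34.2 to 74.6 FPKM) and TNFSF9 (8.89 to 19.1 FPKM), adjacent on chromosome 19, were both little over 2-fold higher, and neither passed 2-fold with the common upper quartile of values above 0.

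Complement, the plasma cascade made largely by the liver, was lower in 7 of 14 genes and higher in 0 (median -1.10). The classical pathway proteases C1R (86.7 to 12.8 FPKM) and C1S (189 to 60.6 FPKM) and the related C1RL (10.7 to 3.07 FPKM) lie side by side on chromosome 12. Factor B, CFB, was at 36.3 and 5.08 FPKM, C2 at 5.30 and 1.68 FPKM, and the central component C3 at 70.1 and 44.7 FPKM. CFI, a protease that inactivates complement fragments, was lower too (16.9 to 3.29 FPKM), so both activating and inactivating proteases were among the lower genes. The membrane regulator CD46 was at 0.11 and the chaperone CLU at 0.60. All 7 lower complement genes were lower with SALL4A as well, against the same control; C1S, for example, was at 45.9 FPKM there. In coagulation, the tissue factor inhibitor TFPI was lower (172 to 80.6 FPKM) and TFPI2 higher (8.56 to 21.5 FPKM).

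Interferon-stimulated genes were lower in 9 of 67 and higher in 0. Among 46 effectors 7 were lower (median -0.45). The membrane protein IFITM1 was at 11.8 FPKM in empty vector cells and 0.185 FPKM in SALL4B cells, IFI27 at 20.7 and 3.28 FPKM, and IFIT3 at 23.3 and 7.18 FPKM. The most abundant effectors, IFI16 (-0.72), LGALS3BP (0.05), GBP1 (0.25) and GBP3 (0.00), were within 2-fold. The sensor DDX58 (-1.11) and the receptor TLR4 (-1.01) were just past 2-fold lower. In antigen presentation 4 of 26 were lower and 0 higher. HLA-E (29.02 to 13.2 FPKM) and HLA-F (12.3 to 5.40 FPKM) passed 2-fold, B2M was at -0.42, and the class II chaperone CD74 was at 13.7 and 1.999 FPKM. HLA genes are close paralogs that can share reads.

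Liver secreted proteins were split. Of 55 members in the table, 20 reached 1 FPKM, with 6 of these higher and 6 lower. The high-density lipoprotein gene APOA1 was at 0.308 FPKM in empty vector cells, 14.9 FPKM in SALL4B cells and 0.731 FPKM in SALL4A cells, and APOA4 of the same cluster at 0.118 FPKM, 5.13 FPKM and 0. SERPINA1, alpha-1 antitrypsin, was at 5.78, 25.3 and 4.66 FPKM. These 3 were thus higher in the SALL4B library and not in the SALL4A library. The acute-phase protein SAA1 was higher in both, at 0.397 FPKM in empty vector cells, 16.3 FPKM in SALL4B cells and 9.66 FPKM in SALL4A cells. APOA1, APOA4, SAA1 and the lectin ITLN1 were under 1 FPKM in empty vector cells. They passed the filter only through the SALL4B library, so none of them could have been called lower. On the lower side were CP, the copper carrier ceruloplasmin (118 to 17.2 FPKM), APOE (27.3 to 6.62 FPKM), and SERPINA3 (16.7 to 0.0729 FPKM), which sits in the same gene cluster as SERPINA1. Among 16 liver lineage factors, 2 were higher and 2 lower. NR2F1 (7.73 to 1.09 FPKM) and HHEX (5.06 to 1.37 FPKM) were lower, and SOX9 (-0.19) and CEBPB (-0.39) were within 2-fold.

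The metallothioneins named here, proteins that bind zinc and copper, were above empty vector. MT2A was at 113 and 230.4 FPKM, MT1X at 16.4 and 36.4 FPKM and MT1A at 5.72 and 26.5 FPKM, and MT1E was at 0.52. With zinc transporters, 3 of 20 genes were higher and 0 lower (median 0.10). With the common upper quartile of values above 0, 1 was higher and 1 lower (median -0.22). The MT1 genes are near-identical paralogs, so their separate values are uncertain. Amino acid transporters were higher in 5 of 25 and lower in 0, and 4 of 25 stayed higher with that scaling, which put 2 lower. SLC7A5, the large neutral amino acid transporter, was at 10.7 FPKM in empty vector cells, 30.1 FPKM in SALL4B cells and 27.1 FPKM in SALL4A cells. Its heavy chain SLC3A2 was at 61.4 and 119 FPKM, just short of 2-fold. The cationic transporter SLC7A2 (3.76 to 12.002 FPKM) and SLC7A7 (8.28 to 23.1 FPKM) were higher, and the cystine transporter SLC7A11 was at 0.15.

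Detoxifying enzymes lay on both sides, with 3 of 34 transferases, reductases and dehydrogenases higher and 3 lower. Of 27 genes of the NRF2 oxidant response 2 were higher and 0 lower: OSGIN1 (7.45 to 28.4 FPKM) and GPX3 (17.3 to 38.2 FPKM). With the common upper quartile of values above 0, 1 was higher and 1 lower, and the median went from 0.10 to -0.24. The abundant NQO1 was at 0.54 and TXN, thioredoxin, at 0.81. The aldo-keto reductases AKR1C1 (0.67), AKR1C2 (1.38) and AKR1C3 (0.60) were above empty vector and AKR1B10 (-1.02) below it, and the AKR1C genes are close paralogs. EPHX1, an epoxide hydrolase, was at 45.5 and 108 FPKM. GSTA1 (13.9 to 30.8 FPKM) and GSTA4 (11.2 to 1.06 FPKM), of 1 glutathione transferase class, were on opposite sides. Iron genes showed 3 of 19 lower and 1 higher, with both ferritin chains, FTH1 (0.09) and FTL (0.12), near 0.

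In glucose metabolism 4 of 33 genes were lower and 1 higher (median -0.08). The glucose transporters SLC2A3 (59.8 to 26.3 FPKM) and SLC2A12 (19.4 to 8.43 FPKM) were lower, and the core enzymes GAPDH (-0.08), TPI1 (-0.01), ENO1 (0.17) and PKM (0.17) were not. Hypoxia response genes had 3 of 25 lower and 0 higher (median -0.37), led by CA9 (21.5 to 3.36 FPKM) and the hormone STC1 (27.7 to 7.60 FPKM), with VEGFA at -0.74 and HIF1A at -0.66. In lipid metabolism the endothelial-type lipase LIPG was at 6.55 FPKM in empty vector cells, 0.263 FPKM in SALL4B cells and 13.6 FPKM in SALL4A cells. The lysosomal cholesterol carrier NPC2 was lower (123 to 39.5 FPKM), and the bile acid binding protein FABP6 (6.68 to 22.5 FPKM) and the triglyceride enzyme DGAT2 (3.93 to 11.6 FPKM) were higher. SCD, the abundant desaturase, was at -0.37. Of 48 lysosomal genes 2 were lower, with the protease CTSC at 58.7 and 14.9 FPKM.

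Cancer-testis antigens, normally limited to germ cells, had 8 of 43 members at 1 FPKM or more, with 4 higher and 1 lower (median 0.53). Without that filter the median was 0. SPANXN3 passed the filter only through the SALL4B library, so it could not have been called lower. SPANXD was at 4.10 FPKM in empty vector cells, 38.1 FPKM in SALL4B cells and 20.7 FPKM in SALL4A cells, and SPANXN3 at 0.345, 14.3 and 8.75 FPKM. MAGEC2, which lies between them among the kept genes of the X chromosome, was at 2.57 and 7.91 FPKM, and at 1.88 FPKM in SALL4A cells. The meiotic gene TEX15 was at 4.58 and 15.9 FPKM. PAGE5 was lower, at 14.5 and 0.808 FPKM. SPANX genes are near-identical copies, so the value of a single member is uncertain. Of 23 oncofetal and imprinted genes 5 were higher and 1 lower, and with the common upper quartile of values above 0 the counts were 2 higher and 4 lower. CD24 was at 214 and 437 FPKM, the stem cell glycoprotein PROM1 at 0.488 and 6.42 FPKM, and the imprinted growth inhibitor CDKN1C at 7.74 and 17.2 FPKM. PROM1 passed the filter only through the SALL4B library and could not have been called lower. The fetal chromatin protein HMGA2 was lower, at 20.02 and 7.07 FPKM, but at 22.02 FPKM in SALL4A cells.

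Granins and other neuroendocrine secretory genes had 5 of 16 lower and 0 higher (median -0.49). SCG2, secretogranin 2, was at 236 FPKM in empty vector cells, 11.3 FPKM in SALL4B cells and 14.9 FPKM in SALL4A cells. BEX1 (75.9 to 8.26 FPKM) and SCG5 (7.43 to 2.31 FPKM) were lower too, while the processing enzymes CPE (-0.55) and PAM (-0.26) were within 2-fold. Of the HOX genes, which set position along the body axis, 4 reached 1 FPKM and 3 of these were lower: HOXB3 (2.47 to 0.272 FPKM), HOXB7 (1.53 to 0.173 FPKM) and HOXD10 (3.84 to 0.952 FPKM). Their levels were low in the SNU-387 libraries. All 4 passed the filter only through the empty vector library, so none of them could have been called higher.

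Against these families, the machinery shared by all cells differed little. None of the 14 NuRD genes, the complex SALL4 recruits, passed 2-fold (median -0.07), with the ATPase CHD4 at -0.12 and the deacetylase HDAC1 at -0.11. Of 65 cell cycle genes 1, CDKN1C, was higher and 0 lower, with the mitotic cyclin CCNB1 at 185 and 183 FPKM and the topoisomerase TOP2A at 179 and 189 FPKM. None of 31 proteasome subunits passed 2-fold. Their median was 0.20, as it was 0.17 for 73 ribosomal proteins and 0.14 for 73 respiratory chain subunits, and all 3 medians took the other sign (-0.14, -0.17 and -0.20) with the common upper quartile of values above 0. RPS29 was the 1 ribosomal protein past 2-fold (154 to 329 FPKM) and NDUFA3 the 1 respiratory chain subunit (18.3 to 42.8 FPKM). Among p53 targets and the BCL2 family, the caspase inhibitor BIRC3 was higher (4.29 to 26.5 FPKM) and the death gene PMAIP1 lower (27.5 to 9.34 FPKM). The small heat shock protein CRYAB was higher, at 4.29 and 17.1 FPKM, and HSP90B1 was at 0.07.

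The position of genes was read as a last grouping. Chromosome 18 had the lowest median ratio, -0.43 over 164 genes, with 15 lower and 2 higher. The X chromosome followed at -0.23, with 33 (8.29%) of its genes lower. Chromosomes 8 (0.27 over 418 genes), 17 (0.22 over 694) and 4 (0.21 over 453) had the highest medians. In the SALL4A library, against the same control, the medians were -0.20 for chromosome 18, 0.03 for X, 0.26 for 8, -0.04 for 17 and 0.06 for 4. Chromosomes 8 and 18 thus held the highest and the lowest median in both SALL4 libraries, and X and 17 differed between them. DNA copy number was not measured in these libraries.

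**Figure D5:**
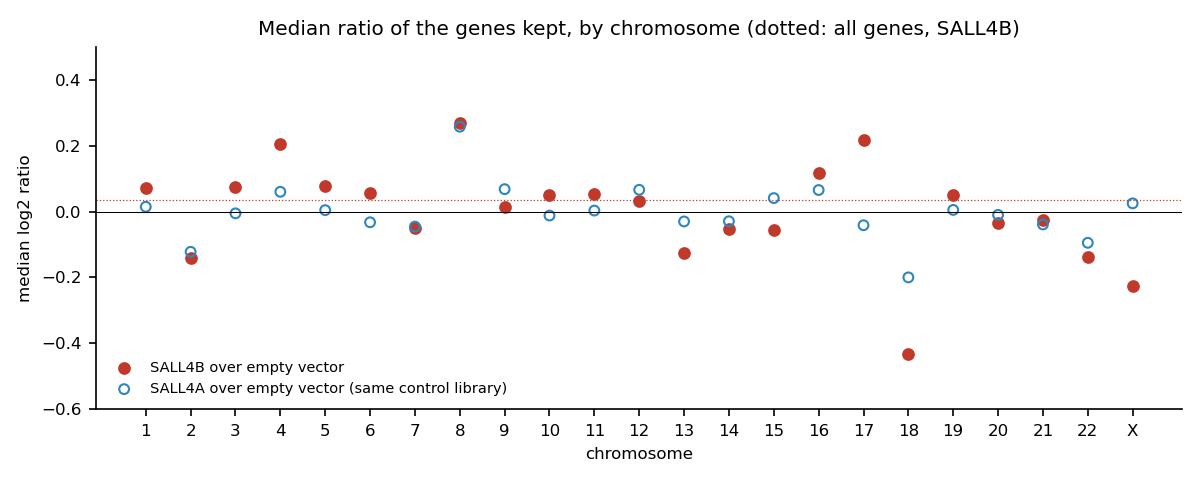
Median log2 ratio over empty vector of the genes kept on each chromosome, for SALL4B (filled red) and SALL4A (open blue), which share the empty vector library. Chromosome 18 lies lowest for both (-0.43 and -0.20), chromosome 8 highest (0.27 and 0.26), and X lies at -0.23 with SALL4B and 0.03 with SALL4A.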

How the data were processed

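FPKM per gene were computed by the authors and deposited as 1 table per library. According to the submitters' processing notes, TopHat2, SAMtools, Cufflinks and Cuffdiff were used on GRCh38 and hg38, with no versions stated. Annotation, strand use and joint normalisation are not stated in the labels or file headers. Paralogs can therefore share reads, and antisense partners cannot be told apart. Per the labels' protocols, RNA was purified with RNeasy and libraries were made with ScriptSeq Complete Gold.

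From the 26032 rows of a table, 17 with a dash for a name were dropped, and values of the 450 symbols found on several rows were added up. Another 333 symbols combine several genes. A pseudocount of 1 FPKM was used, and genes under 1 FPKM in both libraries were left out. The members and the 44 lists were chosen with earlier results of these data known. Named were the 15 highest and 15 lowest ratios at 5 FPKM or more (also without small RNAs), and in each list role the members at 5 FPKM or more past 2-fold, the 4 most abundant, and every member of roles with at most 8 kept. Marker genes were named whatever their level. Some genes that these rules name are not reported here. Of 2476 listed symbols 2412 were in the table, 10 by another symbol. Coordinates and promoters are from RefSeq on GRCh38.p14. Depth was estimated from FPKM steps with GENCODE 29 lengths. There are 10 alternatives, namely 2 pseudocounts, 2 filters, 4 scalings, the highest row per symbol, and leaving out small RNAs and combined symbols. Functions were tested on simulated data. Tools were Python 3.11.15, matplotlib 3.10.9, scipy 1.17.1, pandas 2.3.3 and numpy 2.4.6.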

Additional observations from a re-analysis of the deposited data

How the results depend on the processing

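No paired analysis was possible because each group held 1 library and the labels carry no replicate numbers. The genes called higher numbered 681 with a pseudocount of 0.1 FPKM, and 199, with 1011 lower, with both libraries at a common upper quartile of the values above 0 (chosen after seeing the data). That scaling left 61 of the named genes higher and 19% of the higher genes with ATATT. The other scalings moved the median gene by at most -0.08 and gave 328 to 357 higher and 642 to 685 lower genes. Without a filter on low values, the share of promoters with ATATT was 15.8% and with TATAAA 9.14% over all genes. List roles with a median at least 0.5 from that of all genes then numbered 3 below and 0 above the median gene. With the 1 FPKM filter more lay that far off. Among those below were fibrillar collagens (-1.01), basement membrane collagens (-2.40), complement (-1.10) and ERK feedback inhibitors (-0.66), and among those above proteoglycans (0.80). The number of list shifts thus depended on the filter. With a filter at 5 FPKM, 7 lay above. Medians that changed sign without a filter were those of cornified envelope genes (0), cancer-testis antigens (0), hepatocyte markers (-0.0437) and biliary and progenitor markers (-0.11). The causes of these changes were not tested, except that more genes enter without a filter. No named gene past 2-fold changed sign. With 1 library per group no replicate could be left out, and low values rest on few fragments, fewest with SALL4B.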

Other observations

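Some called genes were neighbours. Among the genes kept, 13 runs of 3 or more consecutive genes on a chromosome were called in the same direction, and those below were chosen after their values were seen. The natural killer cell lectin receptors KLRD1 (7.89 FPKM in empty vector cells and 0.284 FPKM in SALL4B cells), KLRC3 (8.66 and 0.878 FPKM) and KLRC2 (12.7 and 0.987 FPKM) form a lower run of 4 with KLRC1 on chromosome 12, and the KLRC genes are close paralogs that can share reads. Also on chromosome 12, MGP, which inhibits calcification (92.03 and 7.99 FPKM), ARHGDIB (42.2 and 5.61 FPKM), and RERG (7.19 and 0.297 FPKM) form a lower run of 3. With SALL4A, ARHGDIB was at 61.2 FPKM, above empty vector, and RERG at 0.472 FPKM. On chromosome 16, MMP2, LPCAT2 (7.63 and 2.78 FPKM) and the liver carboxylesterase CES1 (38.9 and 8.87 FPKM) are a lower run. On the X chromosome CXorf57, RNF128 (5.18 and 0.429 FPKM), TBC1D8B and MORC4 (31.4 and 14.1 FPKM) are lower with SALL4B, and RNF128 was at 5.62 FPKM in SALL4A cells. Higher runs held PRKCZ, an atypical protein kinase C (21.6 and 105 FPKM), with CALML6, KIAA1751 and GABRD on chromosome 1, and PDE9A, a cyclic GMP phosphodiesterase (3.25 and 16.1 FPKM), with TMPRSS3, RSPH1 and SLC37A1 on chromosome 21.

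The highest and lowest ratios over all symbols belonged mostly to small RNAs, whose FPKM rest on very short lengths. Of 147 small RNAs kept, 22 were higher, 53 lower, and 39 were listed at 0 in 1 of the 2 libraries. SNORD79 was at 344 FPKM in empty vector cells, listed at 0 with SALL4B and at 855 FPKM in SALL4A cells. SNORD116-27 was listed at 0 with empty vector and at 267 FPKM in SALL4B cells, while SNORD116-26 of the same imprinted cluster was at 69.8 FPKM and 0. Copies of 1 cluster thus stood on opposite sides, and near-identical copies can share reads. Called genes were also more frequent among long noncoding RNAs (5.58% higher and 7.61% lower of 394) than among protein-coding genes (2.89% and 4.3% of 11271). The called share also varied with level. Of genes at 1 to 5 FPKM in empty vector cells 4.52% were higher and 6.09% lower, against 0.934% and 3.32% at 20 to 100 FPKM. The classes were not matched for level.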
